A study of Mus musculus with 4 samples.

Results

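Untreated day 7 embryoid bodies (EBs) were compared with the undifferentiated mouse embryonic stem (ES) cells from which they had been made, as the difference between their log2 array signals. Every probe set to which the platform annotation gives exactly 1 gene symbol was taken, which is 21789 of 35556 probe sets and stands for 19938 genes, on 2 of the 4 arrays of the study. The ES cells were the D3 line, taken at day 0 with no treatment. The EBs were grown with no ligand for 2 days as hanging drops and a further 5 days in suspension, and served as the control for the other EB arrays. The study asked how a rexinoid directs such EBs towards skeletal muscle, so its remaining arrays are day 7 EBs given retinoic acid (RA), at 5 µM by the labels and at a lower dose by the article, or the RXR agonist bexarotene at 50 nM. There was 1 array per condition, so each value below is a difference between a pair of arrays with no replicate error, and no p-value is given. An EB holds many cell types, and in such bulk RNA a larger number of cells of a type and more RNA per cell cannot be told apart.

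ES cells are pluripotent cells of the early embryo that are held in self-renewal by a network of transcription factors, among them Oct4 (Pou5f1), Nanog and Sox2, with a further set (Esrrb, Zfp42, Klf4 and others) that marks the naive state. When ES cells aggregate without the factors that maintain them, the outer cells form an endoderm that resembles the visceral endoderm of the embryo, and the inner cells pass through an epiblast-like state and give rise to ectoderm, mesoderm and definitive endoderm. Signals of the BMP, Nodal, Wnt, FGF and Hedgehog families, made by the cells themselves, pattern this process.

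Relative to ES cells, 2195 genes were higher in untreated EBs by 1.5-fold or more, which is 11% of those measured, and 1698 were lower, which is 8.52%. The threshold of 1.5-fold, 0.585 on the log2 scale, is that of the study. All 15 naive pluripotency factors, 16 of 19 other ES cell markers and 17 of 23 germline genes were lower, while Pou5f1 and Nanog were lower and Sox2 was not past the threshold. The higher genes included 22 of 28 visceral and parietal endoderm genes, 10 of 15 definitive endoderm genes, 19 of 26 forebrain and midbrain genes and 15 of 23 imprinted genes. No Hox gene was past the threshold in the higher direction, and genes of differentiated neurons were divided, with 8 of 35 higher and 6 lower. Of 19 genes of myogenic factors and skeletal muscle 6 were higher and 1 lower, and the 4 myogenic regulators were not past the threshold.

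The differences spanned -4.70 to 5.82 on the log2 scale, with a median over all genes of -0.04. A difference of 4-fold or more was found for 290 higher and 162 lower genes, and one of 8-fold or more for 71 and 34. The higher genes had a median log2 signal of 7.26 in ES cells and 8.59 in untreated EBs, and the lower genes 8.66 and 7.42. Of the higher genes, 712 were below the median signal of the ES cell array (6.66), and of the lower genes 563 were below that of the EB array (6.68). The share past the threshold depended on signal, when genes were divided into 10 equal sets by the higher of their signals. It was 0.251% higher and 0.301% lower in the lowest set and 12.4% and 12.5% in the highest. The share higher was largest in between, at 20.8% in sets 6 and 7. The share lower stayed between 11.1% and 13.7% from set 5 up. Across genes, which are not independent replicates, the Pearson correlation of the arrays was 0.954. For scale, 98 genes, or 0.492%, were past 1.5-fold in either direction between the bexarotene-treated and RA-treated EB arrays.

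**Figure D1:**
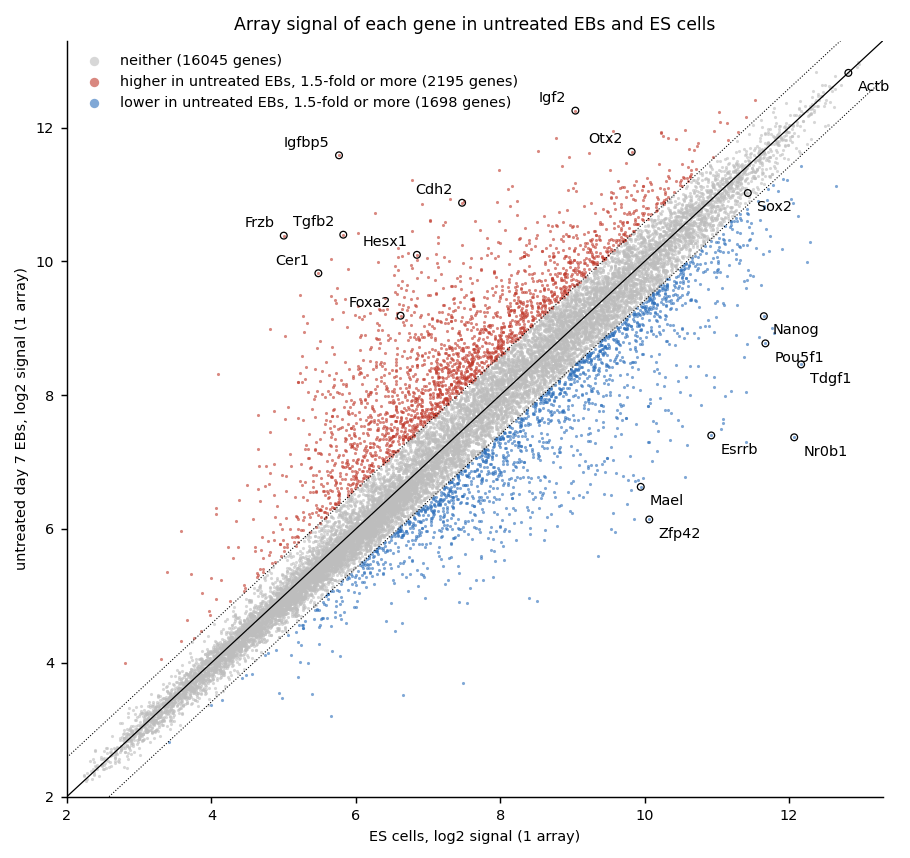
Log2 signal of each of the 19938 genes in ES cells (x axis) and untreated EBs (y axis), 1 array each, with the line of equal signal and dotted lines at 1.5-fold. The 2195 higher genes lie above the upper dotted line and the 1698 lower genes below the lower one, and the circled genes are named in the text.

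Both arrays carried the markers of their labels. In the ES cell array the core and naive factors had log2 signals well over the array median, 11.67 for Pou5f1, 11.65 for Nanog, 11.43 for Sox2 and 10.92 for Esrrb. In the EB array, derivatives of each germ layer were past the threshold in the higher direction, with Ttr (visceral endoderm), Foxa2 (definitive endoderm), Kdr (mesoderm) and Sox1 and Pax6 (neural ectoderm) as examples. Endoderm genes were not absent from the ES cell array, where the visceral and parietal endoderm list had a median of 7.84, over the array median of 6.66. Not every defining marker differed. The visceral endoderm receptor component Amn was 7.63 in ES cells and 8.05 in EBs, and the early mesoderm factor Mesp1 was 5.85 and 5.96. Markers of fibroblasts, which can enter ES cell cultures as feeder cells, were also measured. Their summed signal on the linear scale was 9837 in ES cells and 13044 in untreated EBs over 20 genes, and 6 of the 20 were higher and 1 lower. The part of feeder cells in the values below was not tested.

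The naive factors showed the largest shared difference, with a median of -2.58 over 15 genes. Nr0b1 (Dax1), an orphan nuclear receptor of the ES cell network, had the largest difference of all genes in the lower direction. Its log2 signal was 12.07 in ES cells and 7.37 in untreated EBs, a difference of -4.70, beside 8.74 with RA and 8.22 with bexarotene. Zfp42 (Rex1), a classical marker of undifferentiated cells, was 10.07 and 6.14, 15.2-fold lower. The estrogen-related receptor Esrrb was 10.92 and 7.40, 11.5-fold lower. Fgf4, the growth factor by which ES cells prime their own differentiation, was 8.72-fold lower, from 11.12 to 7.99. Tfcp2l1, Nr5a2 and Tcl1 followed at 7.64-fold, 7.51-fold and 6.73-fold, and the Krüppel-like factors Klf2, Klf4 and Klf5 were 3.46-fold, 2.96-fold and 2.96-fold lower. The smallest difference of the list was that of Stat3, the transducer of LIF signalling, at 1.70-fold lower (10.29 and 9.53). In each of these genes the signal with either ligand was nearer to that of untreated EBs than to that of ES cells.

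Among 10 core factors, 4 were lower and 2 higher. Pou5f1 was 11.67 in ES cells and 8.78 in untreated EBs, 7.46-fold lower, and Nanog was 11.65 and 9.18, 5.54-fold lower. Utf1, a chromatin factor of ES cells, was 4.02-fold lower, from 12.29 to 10.29. Sox2, which is also a factor of neural progenitors, was 11.43 and 11.02, a difference of -0.41 that did not pass the threshold, and Sall4 differed by 0.08. The RNA-binding proteins Lin28a and Lin28b, which block maturation of let-7 microRNAs, were 1.59-fold and 2.88-fold higher. The core list thus held both directions, unlike the naive list.

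Of the other ES cell markers, the Nodal co-receptor Tdgf1 (Cripto) was 12.17 in ES cells and 8.46 in EBs, 13.1-fold lower. Gdf3, a ligand of the TGF-beta family, was 8.86-fold lower, from 9.86 to 6.71, and the germline ATPase gene Morc1 10.4-fold lower, from 9.75 to 6.38. Dnmt3l, the cofactor of de novo DNA methylation, and Dppa4 and Dppa2, nuclear proteins of pluripotent cells, were 8.77-fold, 8.48-fold and 6.77-fold lower. The 3 members of this list that did not pass were Cdh1 (E-cadherin, 11.02 and 10.72), Dppa3 (5.65 and 5.48) and the glucose transporter Slc2a3 (12.15 and 12.40). Of 6 genes of the 2-cell embryo, which a small share of cells in ES cultures expresses, only Eif1a was past the threshold, at 1.53-fold lower.

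The 25 largest differences in the lower direction lay between -3.15 and -4.70 on the log2 scale, the smallest being 8.86-fold, and 12 of these genes had an EB signal below the array median. Several were no part of the pluripotency lists. Laptm5, a lysosomal membrane protein best known from blood cells, was 11.40 in ES cells and 7.30 in EBs, 17.2-fold lower. The quinone reductase Nqo1 was 9.86 and 6.14, and the carbonyl reductase Cbr3 9.59 and 5.96, or 13.1-fold and 12.3-fold lower. The cytoskeletal GTPase Septin1, the membrane-binding protein Bin2 and the transglutaminase Tgm1 differed by -3.56, -3.52 and -3.34. The noncoding RNA Platr8, named for its link to pluripotency, was 7.49 and 3.70, 13.8-fold lower. The zinc finger genes Zfp640, Zfp980 and Zfp979 were lower, by 13.7-fold, 10.8-fold and a log2 difference of -3.32.

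Germline genes formed another lower group, with a median of -1.27 over 23 genes, 17 lower and 0 higher. When signals under the 25th percentile were raised to it, the median was -0.64. Mael, a factor of the piRNA pathway that silences transposons, was 9.95 in ES cells and 6.63 in untreated EBs, 9.97-fold lower. Tdrd12, of the same pathway, was 9.20 and 6.55, and the germ cell helicase Ddx4 (Vasa) 7.88 and 5.68, or 6.26-fold and 4.58-fold lower. The synaptonemal complex gene Sycp3 was 2.87-fold lower, from 8.55 to 7.03, and the germ cell RNA-binding protein Dazl 2.74-fold lower, from 6.84 to 5.39. Stra8, at 5.49 and 4.28, had low signal in both arrays. The median signal of the list was 7.43 in ES cells and 5.83 in untreated EBs, beside array medians of 6.66 and 6.68. Rhox6 and Rhox9, X-linked homeobox genes of the reproductive tract, did not pass at 0.50 and 0.25.

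Enzymes of DNA methylation and Polycomb proteins were split. The hydroxylases Tet1 and Tet2, which start the removal of methyl groups, were 3.29-fold and 3.95-fold lower, and Tet3 was 3.07-fold higher (8.12 in ES cells and 9.74 in EBs). Dnmt1, which maintains methylation through division, differed by 0.02, and Dnmt3a and Dnmt3b by -0.36 and -0.48. Among Polycomb genes, Cbx7, the chromobox protein of ES cells, was 10.39 and 9.05, 2.52-fold lower, whereas its relatives Cbx2 and Cbx8 were 2.33-fold and 2.46-fold higher. Phc1, Phf19 and Eed differed by -1.35, -1.30 and -1.27, Bmi1 was higher by 2.50-fold (6.69 and 8.01), and the methyltransferase gene Ezh2 differed by 0.10.

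The 25 largest differences in the higher direction lay between 12.1-fold and 56.5-fold, and 21 of these genes were below the array median in ES cells. Igfbp5, a secreted protein that binds insulin-like growth factors, was 5.77 in ES cells and 11.59 in untreated EBs, 56.5-fold higher, beside 10.30 with RA and 10.24 with bexarotene. Frzb, a secreted Wnt antagonist, was 5.00 and 10.39, 41.7-fold higher. The growth factor Tgfb2 was 5.83 and 10.40, 23.8-fold higher, with 7.68 in the RA array and 8.41 in the bexarotene array. Cer1, a secreted inhibitor of Nodal, BMP and Wnt made by the anterior visceral and definitive endoderm, was 5.48 and 9.82, 20.3-fold higher, but 5.78 with RA and 5.84 with bexarotene. Its difference therefore shrinks from 4.34 to 1.67 when the mean of the 3 EB arrays takes the place of the untreated one. Capn6, a calpain-like protein without protease activity, Hsd11b2, which inactivates glucocorticoids, and the mesenchymal cadherin Cdh11 were 21.8-fold, 21.7-fold and 21.2-fold higher. The matrix proteins Postn and Frem1 were higher by 14.7-fold and 15.1-fold, the axon guidance cue Slit2 by 12.9-fold and the epithelial-to-mesenchymal regulator Zeb2 by 12.6-fold. The protease genes Ctsh and Cpm were higher by 20.8-fold and 15.3-fold, and the secreted synaptic protein gene Lgi1 by 18.6-fold.

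**Figure D2:**
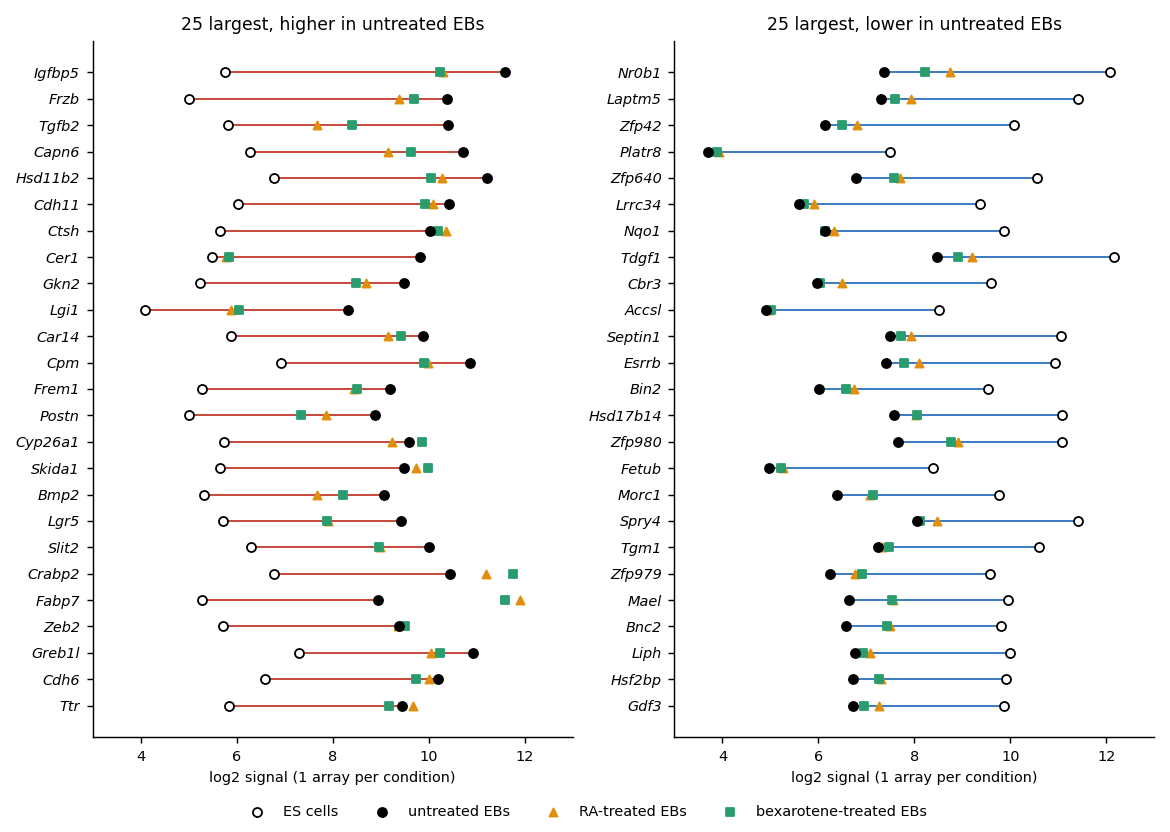
Log2 signal (x axis) of the 25 genes furthest apart in each direction, 1 array per condition: ES cells (open circles), untreated EBs (filled circles), RA-treated EBs (triangles) and bexarotene-treated EBs (squares). Lines join ES cells and untreated EBs, and for Cer1 and Lgi1 both ligand-treated arrays lie nearer to ES cells than to untreated EBs, while Fabp7 and Crabp2 lie beyond untreated EBs.

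Endoderm genes were higher in untreated EBs. Of 28 genes of visceral and parietal endoderm, 22 were higher and 1 was lower, the median was 1.06, and their summed linear signal was 15869 in ES cells and 33900 in EBs. The thyroid hormone carrier Ttr was 5.85 and 9.45, 12.1-fold higher. Pth1r, a hormone receptor of parietal endoderm, was 7.09 and 9.72, 6.17-fold higher, and the retinol carrier Rbp4 was 7.31 and 9.63, 4.99-fold higher. The basement membrane collagens Col4a1 and Col4a2 were 3.56-fold and 4.32-fold higher, and the uptake receptor Cubn and its adaptor Dab2 3.06-fold and 2.39-fold. The apolipoprotein genes Apob and Apoa1 were higher by 3.21-fold and 2.11-fold, and Afp, the fetal serum protein, by 2.16-fold from a low signal (5.82 and 6.93). Gata6, which starts the extraembryonic endoderm, was 10.02 in ES cells and 10.46 in EBs, a difference of 0.44, and Gata4 was 9.03 and 10.02. Trf (transferrin) was the lower gene, at 8.59 and 6.54, 4.16-fold.

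Definitive endoderm genes had the largest list median of the 46 lists, 2.41 over 15 genes, with 10 higher and 0 lower. The pioneer factor Foxa1 was 7.11 in ES cells and 10.11 in untreated EBs, 7.97-fold higher, beside 7.55 with RA and 7.56 with bexarotene. Its paralog Foxa2 was 6.62 and 9.19, 5.93-fold higher, and the endoderm factor Sox17 was 7.20 and 8.53, 2.51-fold higher. The chemokine receptor Cxcr4 was 5.81-fold higher, the trypsin inhibitor Spink1 7.10-fold and the membrane protease Tmprss2 6.95-fold. Prdm1, Hhex and Foxa3, which act in anterior endoderm and the liver bud, did not pass, at 0.13, 0.32 and 0.30. With the mean of the 3 EB arrays in place of the untreated array the list median was 1.29.

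Genes of the primitive streak, through which mesoderm and endoderm leave the epiblast, were mixed at day 7: 6 of 19 were higher, 1 lower, and the median was 0.14. Brachyury (T), a defining gene of the streak, was not analysed here. The streak regulators Mesp1, Mixl1, Tbx6 and Evx1 differed by 0.11, 0.06, -0.01 and 0.14, all from signals near or under the array median. Eomes was 7.98 in ES cells and 8.38 in EBs, which did not pass. Gsc, a factor of the anterior streak, was 6.86 and 8.08, 2.32-fold higher, while it was 6.84 in both ligand-treated arrays, and Lhx1 was 6.45 and 8.07. Nodal, the ligand that induces the streak, was the lower gene, at 8.62 and 6.62, 4.01-fold. In the primed epiblast list 7 of 14 were higher, with Fgf5 at 7.06 and 9.15 and Otx2 at 9.82 and 11.64, or 4.25-fold and 3.53-fold, and Foxd3 was lower by 5.38-fold.

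Mesoderm beyond the streak was represented by part of each list. Of 25 paraxial mesoderm and somite genes 11 were higher and 1 lower. The forkhead factors Foxc2 and Foxc1, which act in presomitic and lateral mesoderm, were 5.29 and 8.24, and 5.77 and 8.04, or 7.74-fold and 4.82-fold higher. The transcriptional cofactor Eya2 was 6.36 and 8.97, 6.12-fold higher, and Pax3, a factor of the dermomyotome and dorsal neural tube, was 5.56 and 7.45, 3.72-fold higher, with 8.06 in the RA array and 8.45 in the bexarotene array. Meox1, of the early somite, was 5.83 in ES cells and 5.94 in untreated EBs, beside 6.18 in the RA array and 7.11 in the bexarotene array. Tcf15, a somite factor that ES cells also express, was 5.33-fold lower. The median of this list was 0.21, and 1.32 when genes below the array median in both arrays were left out.

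In the list of myogenic factors and skeletal muscle 6 of 19 were higher and 1 lower, and the median was 0.10. The higher genes were transcriptional regulators that act in or before the muscle lineage and in other tissues, namely Eya2 and Pax3 as given above, Eya1 (7.37 and 9.63, 4.80-fold), Dach2 (5.16 and 6.47, 2.49-fold), Mef2a (1.91-fold) and Mef2c (1.78-fold), and the lower gene was Six4, at 1.63-fold. The contractile and metabolic genes Acta1 and Ckm differed by 0.17 and -0.15. The 4 myogenic regulators Myf5, Myod1, Myog and Myf6 differed by 0.15, -0.01, -0.42 and -0.10 and had signals under the array median in both arrays.

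Lateral and intermediate mesoderm genes were higher for 10 of 19 and lower for 2. Prrx1, a homeobox gene of limb and head mesenchyme, was 6.02 and 8.39, 5.17-fold higher. Foxf1, of the splanchnic mesoderm, was 7.45 and 9.11, 3.17-fold higher, and 7.85 with RA and 9.13 with bexarotene. The cardiac list had 12 of 26 higher and none lower. Isl1, a factor of second heart field progenitors, was 6.08 and 8.34, 4.80-fold higher, and the contractile genes Myh7 and Actc1 were 6.95 and 9.03, and 7.32 and 9.10, or 4.23-fold and 3.45-fold higher. Nkx2-5 and Myh6 did not pass, at -0.14 and 0.16. For Myh7, Actc1 and Isl1 the ligand-treated arrays lay between ES cells and untreated EBs.

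Among 20 endothelial and blood genes, 6 were higher and 2 lower. The embryonic globins Hbb-bh1 and Hba-x, of primitive red cells, were 4.86 and 7.77, and 6.70 and 9.13, or 7.49-fold and 5.37-fold higher. The VEGF receptors Flt1 and Kdr were 9.92-fold and 3.23-fold higher, and the endothelial cadherin Cdh5 4.40-fold. Pecam1, an adhesion molecule of endothelium that ES cells also carry, was 9.15 and 6.85, 4.92-fold lower. The blood regulators Tal1, Gata1 and Runx1 did not pass. In the mesenchyme list Acta2 (smooth muscle actin) was 7.14 and 10.28, 8.85-fold higher, and Lum and Dcn, matrix proteoglycans, were 4.45-fold and 3.26-fold higher. The fibrillar collagens Col1a1, Col1a2 and Col3a1 differed by 0.19, 0.45 and 0.09. The hyaluronan synthase Has2 and its partner in the matrix, versican (Vcan), were 11.9-fold and 6.47-fold higher.

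Neural genes of the anterior regions were higher in untreated EBs. Of 26 forebrain and midbrain genes 19 were higher and 1 was lower, at a median of 1.20. Hesx1, a repressor of the anterior neural plate, was 6.85 in ES cells and 10.10 in untreated EBs, 9.53-fold higher, beside 7.09 with RA and 6.54 with bexarotene. Fezf1 and Fezf2, zinc finger factors of the forebrain, were 6.43 and 9.29, and 6.65 and 9.35, or 7.24-fold and 6.49-fold higher. Six3, of the most anterior neural plate and eye field, was 6.45 and 8.90, 5.45-fold higher, beside 6.65 with RA and 6.35 with bexarotene. Wnt1 and En1, of the midbrain-hindbrain boundary, were 8.20-fold and 4.54-fold higher. In this list the untreated array was the highest of the EB arrays for each of Hesx1, Six3, Fezf1, Fezf2, Otx1, Otx2, Lhx5 and En1.

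General neural progenitor genes were higher for 13 of 23 and lower for none, with a median of 0.88. The fatty acid binding protein Fabp7, a marker of radial glia, was 5.28 and 8.94, 12.7-fold higher, and reached 11.91 with RA and 11.60 with bexarotene. N-cadherin (Cdh2) was 7.47 and 10.88, 10.6-fold higher, and E-cadherin (Cdh1) was not past the threshold, as given above. Pax6 was 6.29 and 8.13, and Sox1 8.68 and 9.37, or 3.57-fold and 1.62-fold higher. Of 21 hindbrain and spinal cord genes 10 were higher, among them the ventral factors Nkx6-1 and Nkx2-2 at 6.05-fold and 3.54-fold. Gbx2, a hindbrain gene that is also a naive factor, was 10.16 and 7.58, 5.99-fold lower.

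Genes of neurons had no common direction: 8 of 35 were higher and 6 lower, the median was 0.03, and the summed linear signal was 9249 in ES cells and 6734 in untreated EBs, beside 15606 in the RA array and 11767 in the bexarotene array. The neuronal tubulin Tubb3 was 7.50 and 6.98, doublecortin (Dcx) 5.18 and 5.65, and neither passed. The proneural factors Neurod4 and Neurog1 differed by 0.37 and 0.25, while Neurod1 was 4.51-fold lower, from 8.28 to 6.11, and the filament gene Ina 3.16-fold lower. Isl1, Ebf2 and Ebf3 were 4.80-fold, 2.91-fold and 2.42-fold higher. In the neural crest list 8 of 16 were higher, led by Sox9 (7.14 and 9.91, 6.83-fold), and 3 were lower.

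Hox genes give the position of cells along the body axis. Of 14 measured genes of the anterior groups 1 to 5, 0 were past the threshold, with differences from -0.35 to 0.45, and of 23 genes of groups 6 to 13, 2 were lower and 0 higher. Hoxb1 was 6.65 in ES cells and 6.61 in untreated EBs, beside 9.25 with RA and 10.02 with bexarotene. Hoxa2 was 5.27 and 5.71, beside 8.52 and 8.81. Hoxc13 and Hoxc12 were the lower genes, at 1.84-fold and 1.51-fold, with signals under the array median in both arrays.

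Signalling genes divided by family and by role. In the BMP, TGF-beta and Nodal list 16 of 35 were higher and 9 lower. The ligands Bmp2 and Bmp5 were 5.33 and 9.08, and 5.26 and 8.58, or 3.76 and 3.32 higher on the log2 scale, and Bmp7 was 3.79-fold higher. Bmp4, the ligand that supports ES cell self-renewal, was 11.31 and 9.97, 2.53-fold lower. On the Nodal side, Nodal itself was 4.01-fold lower, as given above, and its co-receptor Tdgf1 and its inhibitors Lefty1 and Lefty2 differed by -3.71, -1.88 and -1.14. The receptors Acvr1, Acvr2b, Acvr2a, Bmpr1a and Bmpr2 were higher by 1.56-fold to 2.27-fold. Among secreted antagonists of BMP and activin, follistatin (Fst) was 6.85 and 9.75, 7.46-fold higher, Nog and Chrd were 2.21-fold and 1.67-fold higher, and Grem1 differed by 0.53 and did not pass. The target genes Id2 and Id3 were 2.28-fold and 4.12-fold higher, whereas Id1 and Id4 did not pass and the inhibitory Smad7 was 3.56-fold lower.

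In the Wnt list 18 of 37 were higher and 0 lower, against 11% higher and 8.52% lower over all genes. The receptor Fzd2 was 7.21 and 10.54, higher by 3.33 on the log2 scale. Lgr5, the receptor of R-spondins and itself a Wnt target, was 5.71 and 9.43, 13.2-fold higher. The ligands Wnt1 and Wnt5a were 6.19 and 9.23, and 6.17 and 8.02, or 8.20-fold and 3.62-fold higher, while Wnt3, Wnt3a and Wnt8a, ligands of the streak, differed by 0.10, -0.23 and -0.10. Among secreted antagonists, Frzb had the largest difference of the list, 41.7-fold, Dkk1 was 7.80-fold (8.11 and 11.08) and Sfrp2 3.37-fold higher, and Wif1, Dkk3 and Sfrp5 did not pass at 0.43, 0.29 and 0.20. Axin2, a feedback target of the pathway, was 1.96-fold higher, and Lef1 and Tcf7l2, the nuclear effectors, 2.61-fold and 3.70-fold.

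The FGF list was divided, with 6 of 25 higher and 7 lower. Among feedback inhibitors of the pathway, Spry4 (11.40 and 8.05), Spry2 and Dusp6 were lower by 10.2-fold, 1.80-fold and 1.74-fold, while Spry1, Spred1, Spred2 and Dusp4 did not pass at -0.22, -0.26, -0.30 and 0.10. The ETS factors Etv4 (9.70 and 6.79) and Etv5, targets of FGF signals, were lower by 7.54-fold and 3.35-fold. The receptors Fgfr1, Fgfr2 and Fgfr3 were higher by 1.95-fold, 4.07-fold and 2.40-fold, with Fgfr2 at 8.13 and 10.16. Fgf4 was lower and Fgf5, Fgf10 and Fgf15 were higher, the last by 3.36-fold (8.49 and 10.24).

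Hedgehog genes were higher for 12 of 17 and lower for 0, with a median of 1.14. Shh, the ligand of notochord and floor plate, was 7.11 and 9.52, 5.31-fold higher, beside 7.55 with RA and 7.33 with bexarotene, and Ihh, the ligand of visceral endoderm, was 2.42-fold higher. The receptor and target Ptch1 was 10.23 and 11.93, 3.25-fold higher, and the binding protein Hhip, another target, 2.85-fold. Smo, the transducer, and the effector Gli3 were 2.20-fold and 2.83-fold higher. Of 19 Notch genes 8 were higher and 2 lower. The targets Hey1 and Hey2 were 4.01-fold and 6.22-fold higher, and the ligands Jag1 and Dll1 3.56-fold and 2.65-fold, while Jag2 and Notch4 were 2.06-fold and 1.72-fold lower.

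**Figure D3:**
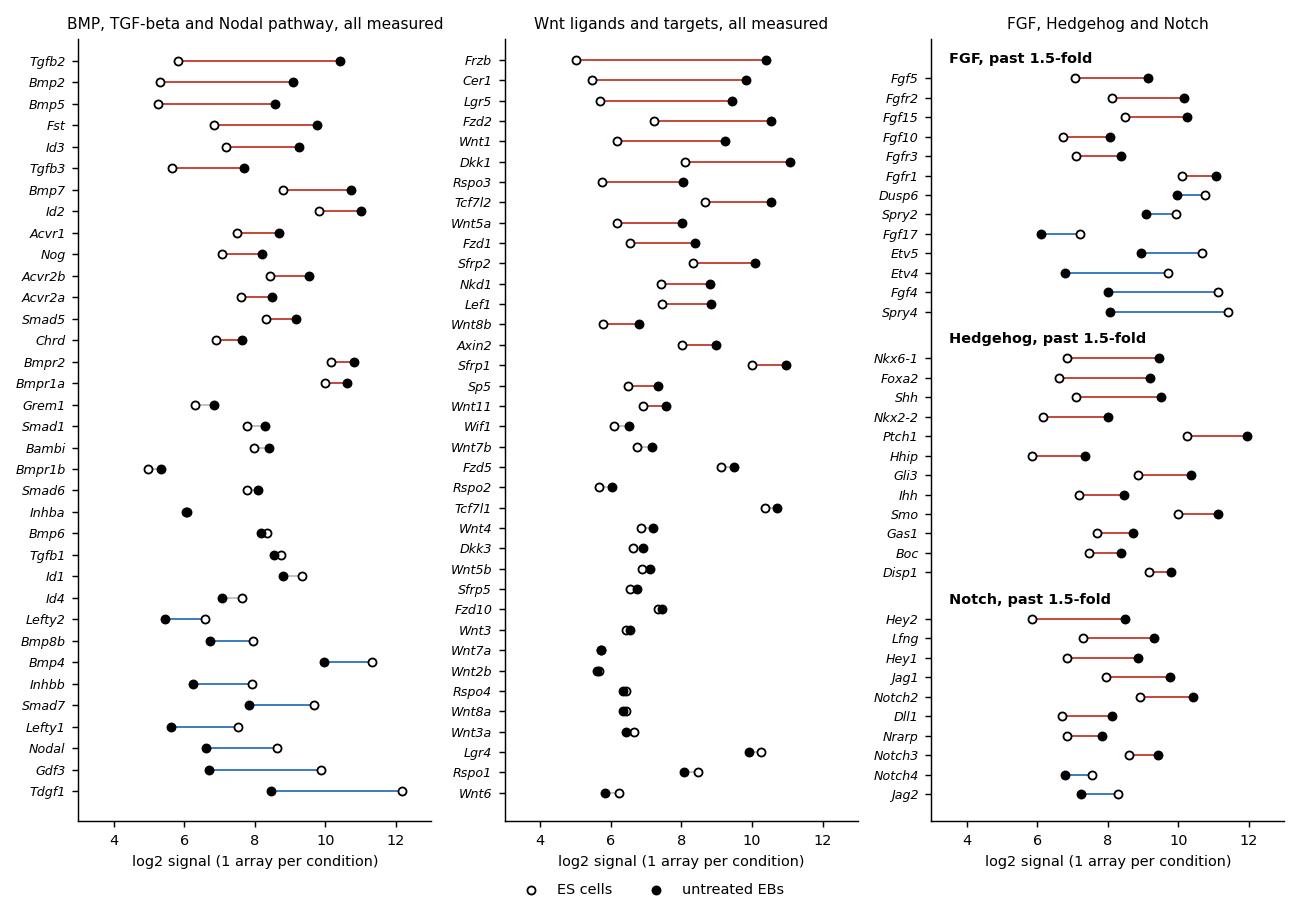
Log2 signal (x axis) in ES cells (open circles) and untreated EBs (filled circles), 1 array each, for all measured BMP, TGF-beta, Nodal and Wnt genes and for the FGF, Hedgehog and Notch genes past 1.5-fold. The lines are red where EBs were higher and blue where they were lower, and no Wnt or Hedgehog gene is joined by a blue line, while Tdgf1, Gdf3, Nodal, Spry4, Fgf4 and Etv4 are.

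Retinoid genes were of interest because the study adds retinoid ligands to these EBs. Without ligand, 9 of 20 were already higher than in ES cells and 2 were lower. Cyp26a1, which degrades RA and is itself an RA target, was 5.75 in ES cells and 9.60 in untreated EBs, 14.5-fold higher, beside 9.24 with RA and 9.87 with bexarotene. Crabp2, which carries RA to its receptors, was 6.79 and 10.46, 12.7-fold higher, beside 11.19 and 11.76. The receptor Rarb was 5.86 and 8.17, 4.94-fold higher, and Stra6 and Rdh10, of retinol uptake and oxidation, were 3.49-fold and 3.39-fold higher. Rarg was 10.48 and 8.89, 3.02-fold lower. The enzymes that make RA, Aldh1a1, Aldh1a2 and Aldh1a3, differed by 0.34, 0.21 and 0.23, with signals near or under the array median, and Rara, Rxra and Rxrb did not pass.

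Imprinted genes, which are expressed from 1 parental allele, were higher for 15 of 23 and lower for 1, with a median of 1.01. The growth factor gene Igf2 was 9.04 and 12.25, 9.27-fold higher, and Nnat, a membrane protein of neural tissue, was 8.52 and 11.65, 8.77-fold higher. The zinc finger genes Peg3 and Plagl1 were 6.11-fold and 5.18-fold higher, and Dlk1, Ndn and Sgce 3.40-fold to 3.41-fold. Phlda2, a growth restrictor of the placenta, was 12.05 and 10.87, 2.26-fold lower. Meg3 differed by -0.14.

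Lists of growth and division genes varied in share and direction, beside 11% higher and 8.52% lower over all genes. Of 30 cyclins, CDKs and their inhibitors, 3 were higher and 4 lower. Ccnd2 was 7.99 and 11.36, 10.4-fold higher, while the other D-type cyclins Ccnd1 and Ccnd3 differed by 0.13 and -0.24, and Ccne1, the G1/S cyclin that is high in ES cells, was 11.65 and 10.11, 2.90-fold lower. Of 25 replication genes 3 were lower and 0 higher. Ribosome biogenesis and Myc genes had a median of -0.52, with 8 of 20 lower and 0 higher, and Myc and Mycn were 1.71-fold and 1.59-fold lower. The respiratory chain list had a median of -0.29 and 2 of 24 lower. Among glycolysis and hypoxia genes 8 of 22 were higher, among them the collagen hydroxylase P4ha1 (8.49 and 10.36, 3.64-fold) and Vegfa (2.03-fold), and 3 were lower. Of 12 housekeeping genes 10 did not pass, with Actb at 12.82 in both arrays. Hprt was 10.75 and 9.32, 2.70-fold lower, and B2m was 10.09 and 11.15, 2.09-fold higher.

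**Figure D4:**
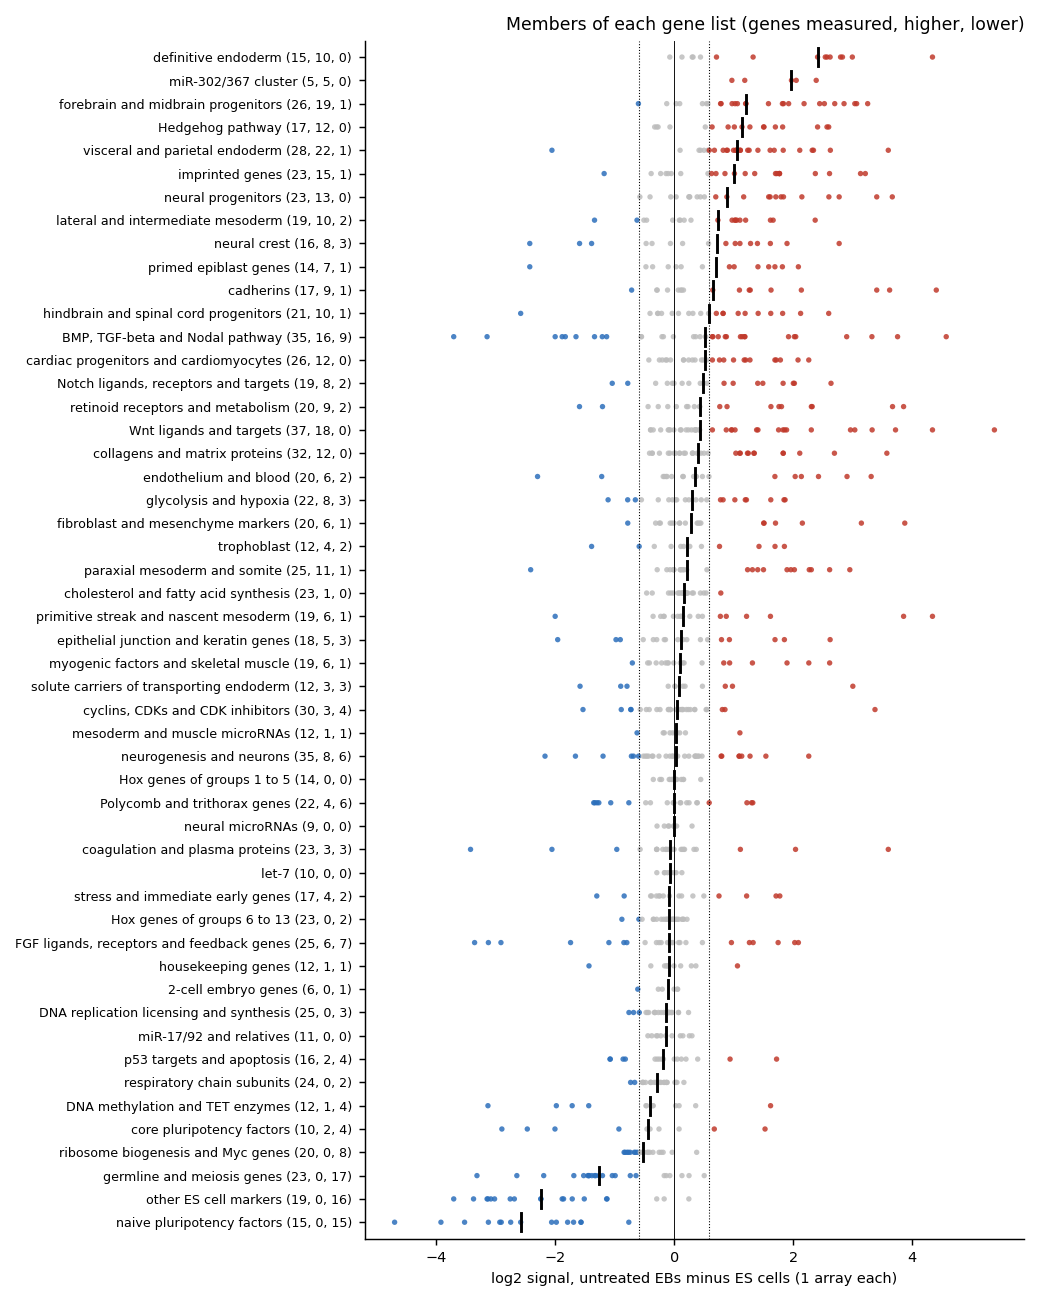
Log2 difference of untreated EBs minus ES cells (x axis) for each measured member of 46 gene lists and 5 microRNA groups, with red points 1.5-fold or more higher, blue points 1.5-fold or more lower, grey points neither and a bar at each median. Naive pluripotency factors lie lowest, at a median of -2.58, and definitive endoderm highest, at 2.41, and the medians of Hox, neuronal and housekeeping genes lie near 0.

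MicroRNA genes were measured by probe sets annotated to the microRNA gene, so these signals are of the gene and not of the mature microRNA. Of 296 such genes 13 were higher (4.39%) and 9 lower (3.04%), below the shares over all genes. Their median signal was low in both arrays, 5.09 and 5.10, where few genes pass. Among all genes whose higher signal lay between 4.58 and 5.48, 0.953% were higher and 1.20% lower. The cluster of miR-302 and miR-367, which is characteristic of pluripotent and early embryonic cells, held 5 of the 13 higher genes, and all 5 lie within the span of Larp7. Their mature sequences are shown because the cluster carries a seed that is shared, in part, with other families. The following are from RefSeq (GRCm38.p6), with the seed (bases 2 to 8) in capitals:
miR-302b-3p: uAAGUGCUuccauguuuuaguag
miR-302d-3p: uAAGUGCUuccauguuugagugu
miR-302c-3p: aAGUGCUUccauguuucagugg
miR-302a-5p: aCUUAAACgugguuguacuugc
miR-367-3p: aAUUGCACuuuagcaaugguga
miR-25-3p: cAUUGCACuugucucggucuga
miR-17-5p: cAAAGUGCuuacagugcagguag

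The first 2 share the seed AAGUGCU, and that of miR-17 (AAAGUGC) is the same run moved by a base. They lie at chr3:127545275-127545297 and chr3:127545665-127545687 on the plus strand. Mir302c was 3.58 in ES cells and 5.97 in untreated EBs, 5.23-fold higher, beside 5.18 with RA and 4.51 with bexarotene. Mir302d was 4.39 and 6.44, and Mir302a 3.38 and 5.35, or 4.14-fold and 3.92-fold higher. Mir367 and Mir302b were 2.27-fold and 1.96-fold higher. All 5 are under the array median in both arrays, and in ES cells all 5 are under the 25th percentile of that array (5.19). In untreated EBs Mir367 and Mir302b are also under the 25th percentile (5.19), and Mir302a, at 5.35, is little above it. Their folds therefore rest on signals that a floor at that percentile would raise, in both arrays for Mir367 and Mir302b. The surrounding gene Larp7 was 9.74 and 10.19, a difference of 0.45. Genes with the seed of miR-367 outside the cluster did not pass: Mir25 differed by -0.30, Mir363 by 0.15, Mir32 by -0.15 and Mir92b by 0.39. The miR-17 group also did not, with Mir17 at 0.30, Mir20a at -0.44, Mir93 at -0.23 and Mir106b at 0.10. None of 10 let-7 genes or 9 neural microRNA genes passed.

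The lower microRNA genes lay mostly in a single region. Between Meg3 and Dio3 on chromosome 12, an imprinted domain with a long run of microRNA genes, 7 of 40 were lower (17.5%) and 0 higher, 38 of the 40 had a difference below 0, and the median was -0.30. In the other 256 microRNA genes 2 were lower and 13 higher, with a median of -0.03. Mir300 was 6.38 in ES cells and 5.33 in EBs, 2.08-fold lower, Mir485 was 7.07 and 6.24, and Mir382 was 7.40 and 6.69. The long transcripts of the same domain did not pass, with Meg3 at -0.14, Rian at -0.05 and Rtl1 at -0.11, and Dio3 was 0.26. These genes are neighbours, so their values are not independent.

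The promoters of the genes were then described, since their letters were not used to choose them. RefSeq promoters (GRCm38.p6, 250 bases before to 50 after the first listed start) matched 15563 genes, of which 2628 had several starts. CpG pairs, the sites of DNA methylation, are depleted in most of the genome but kept in many promoters, which the ratio of observed to expected CpG measures. Its median was 0.626 over all genes, 0.706 in higher genes, 0.662 in lower genes and 0.601 in the rest. Genes at low signal in both arrays had few CpG. A closer comparison is with genes that did not pass but were at or above the array median in at least 1 array. In these the median was 0.791 and 11.2% were below a ratio of 0.4. The share with a ratio below 0.4 was 18.7% of higher and 25.6% of lower genes, which were not limited by signal. Among genes past 4-fold it was 28.8% of 205 higher and 41.1% of 124 lower genes, with medians of 0.631 and 0.484.

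Examples of a low and a high ratio on each side are shown, 5′ to 3′ on the strand of the gene, with CpG in capitals. Esrrb (lower, 7 CpG, ratio 0.266) is at chr12:86360867-86361166, plus strand, and Mael (lower, 24 CpG, 0.780) at chr1:166238695-166238994, minus strand. Cer1 (higher, 6 CpG, 0.308) is at chr4:82885102-82885401, minus strand, and Cyp26a1 (higher, 26 CpG, 0.894) at chr19:37697558-37697857, plus strand.
Esrrb: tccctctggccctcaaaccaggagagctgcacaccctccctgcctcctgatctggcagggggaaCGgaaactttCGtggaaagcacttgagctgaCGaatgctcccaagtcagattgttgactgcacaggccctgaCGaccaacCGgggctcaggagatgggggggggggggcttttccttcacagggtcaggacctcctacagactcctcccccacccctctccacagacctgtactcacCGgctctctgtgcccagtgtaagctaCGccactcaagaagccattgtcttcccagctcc
Mael: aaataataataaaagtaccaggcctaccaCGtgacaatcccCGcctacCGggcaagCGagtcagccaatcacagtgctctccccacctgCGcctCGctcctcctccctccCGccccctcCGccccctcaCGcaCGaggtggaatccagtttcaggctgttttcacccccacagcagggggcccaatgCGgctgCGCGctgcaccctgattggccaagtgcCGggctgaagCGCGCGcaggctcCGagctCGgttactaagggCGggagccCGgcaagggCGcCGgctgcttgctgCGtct
Cer1: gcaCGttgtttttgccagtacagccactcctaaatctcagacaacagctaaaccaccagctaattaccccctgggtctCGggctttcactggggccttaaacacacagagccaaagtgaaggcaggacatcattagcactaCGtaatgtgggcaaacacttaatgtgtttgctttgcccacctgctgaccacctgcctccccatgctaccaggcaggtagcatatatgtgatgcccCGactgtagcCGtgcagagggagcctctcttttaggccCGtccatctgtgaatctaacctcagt
Cyp26a1: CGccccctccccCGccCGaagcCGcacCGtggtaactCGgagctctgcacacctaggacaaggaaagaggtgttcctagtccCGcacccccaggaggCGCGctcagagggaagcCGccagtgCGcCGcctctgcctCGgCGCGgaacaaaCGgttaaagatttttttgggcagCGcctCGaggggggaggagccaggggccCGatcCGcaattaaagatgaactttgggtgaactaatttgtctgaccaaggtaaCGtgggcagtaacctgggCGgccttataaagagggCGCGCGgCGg

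The contrast is visible in the letters: long stretches of the Esrrb and Cer1 promoters hold no CpG, whereas in those of Mael and Cyp26a1 CpG recur throughout. Both kinds of promoter were thus found among the largest differences in each direction.

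A search for 13 short motifs on both strands, none of which contains another, gave the share of promoters with at least 1 match. The octamer ATGCAAAT, the consensus of POU factors such as Oct4, was in 1.71% of all promoters, 1.53% of higher and 2.18% of lower genes, and in 5 of 205 (2.44%) and 6 of 124 (4.84%) genes 4-fold or more higher and lower. AGGTCA, a nuclear receptor core site, was in 13.9% of all promoters, 9.75% of higher and 14.3% of lower genes, and in 9.76% and 20.2% of genes 4-fold or more higher and lower. TTCCGG, of ETS factors, was in 20.1% of all promoters, 17.4% of higher and 22.2% of lower genes. Past 4-fold it was in 7.80% of higher and 6.45% of lower genes, or 16 of 205 and 8 of 124. GGGCGG, the GC box, was in 49.9% of all promoters, 64.9% of higher and 60.9% of lower genes. Past 4-fold it was in 55.1% of higher and 52.4% of lower genes. In the genes that did not pass but were at or above the array median, the octamer was in 1.23% and AGGTCA in 11.9%. There TTCCGG was in 30.7% and GGGCGG in 66.9%. The share with a GC box was thus not raised against those genes, though the higher and lower genes were not limited by signal. Also searched were TATAAA (12.1% of all promoters), AGATAA (9.55%), CAGCTG (15.9%), CACGTG (8.40%), CCAAT (38.3%), TAATTA (4.33%), CATTGT (10.3%), CCACACCC (3.73%) and TGTTTAC (3.03%). TATAAA was in 9.16% of higher and 7.90% of lower genes, and past 4-fold in 14.1% and 12.1%. It was in 6.03% of the genes that did not pass but were at or above the array median. A match is a run of letters in a 300-base window and not a binding site.

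**Figure D5:**
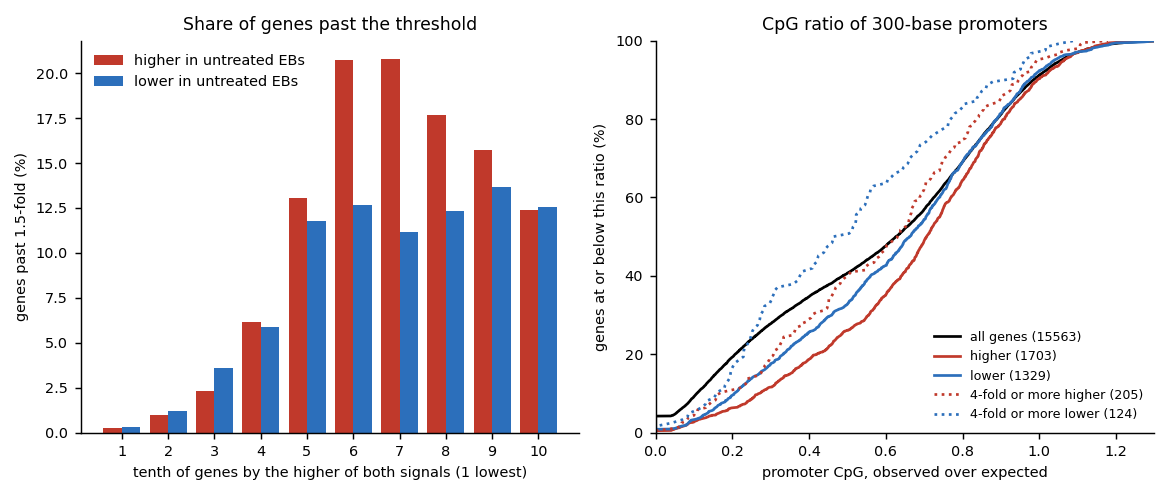
Left, percent of genes 1.5-fold or more higher (red) or lower (blue) in untreated EBs in each of 10 equal sets of genes by the higher of their signals, which was 0.251% and 0.301% in the lowest set. Right, cumulative percent of genes by promoter CpG ratio, in which the curve of genes 4-fold or more lower lies to the left of that of genes 4-fold or more higher, with medians of 0.484 and 0.631.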

How the data were processed

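Total RNA of 4 cultures was labelled from cDNA and hybridised to Affymetrix arrays, 1 per condition. The authors made the deposited log2 values in Affymetrix Expression Console, by correcting for background, normalizing and summarising each probe set. RMA is the method in the article and GCRMA that in the submitters' processing notes, and the scanner files were not used here. They treat background differently, so folds of genes with low signal depend on which was used. Array medians were between 6.66 and 6.69.

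Differences are untreated EBs minus ES cells, counted past 1.5-fold. Where a gene had several probe sets, that of highest mean signal was used, and 999 of 19938 genes had several. Of the gene symbols 19919 match current mouse symbols. The precision is limited by the number of arrays, and no test was made. The genes, lists and motifs were chosen with earlier results of these data known. Named genes are the 25 largest differences in each direction among genes whose higher signal reached the array median, leaving out unnamed gene models and small RNAs, members of 46 lists and 6 microRNA groups by size of difference, members that did not differ or went against their list, and genes the article discusses. The miR-290 group had 0 of 11 members analysed here.

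Alternatives were other thresholds, quantile and loess normalization of the deposited columns, a floor at the 25th percentile, leaving out genes of low signal, the mean over probe sets, and the mean of the 3 EB arrays. Computations used Python 3.11.15, pandas 2.3.3, numpy 2.4.6 and scipy 1.17.1, and were tested on simulated data.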

Additional observations from a re-analysis of the deposited data

How the results depend on the processing

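Counts of genes past the threshold depended on it, with 1158 higher and 697 lower at 2-fold and 290 higher and 162 lower at 4-fold, in place of 2195 and 1698. At 1.5-fold the counts were 2083 and 1797 after quantile normalization, 2284 and 1597 after loess, 2036 and 1509 without genes of low signal, 2155 and 1642 with a floor, 2190 and 1687 with the mean over probe sets, and 2086 and 1758 with the mean of the 3 EB arrays. The median promoter CpG ratio of lower genes, 0.662 at 1.5-fold, was 0.484 at 4-fold, an alternative added after seeing the data. All 50 genes named for the size of their difference were past 1.5-fold under each normalization, floor, probe set and EB array alternative. They had been chosen for the largest differences on these same arrays, so this outcome says little about robustness. No list median whose size had passed 1.5-fold turned its sign. The germline list median moved from -1.27 to -0.64 with the floor, and the difference of Platr8 from -3.78 to -2.30. Without genes below the array median in both arrays, the median of paraxial mesoderm and somite genes moved from 0.21 to 1.32. The floor raises low signals, and leaving out genes of low signal changes which members a median covers and not their values. No further cause of these shifts was tested. No paired analysis was possible because there is 1 array per condition. With no replicate array, the spread between cultures of 1 condition is unknown, low signals are the least certain, and values from the ligand-treated arrays are of other conditions and not repeats of the untreated one.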

Other observations

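Gene families were also described by symbol, after their values had been seen, and some of their members (Fzd, Klf, Aldh) are in lists described above. Of 252 symbol stems with 10 or more genes, 24 had no gene past the threshold, 35 had at least 25% of their genes higher and 14 at least 25% lower. The Fzd stem, which holds the Frizzled receptors of Wnt and the transcript Fzd10os, had 6 of 11 higher and 0 lower. Fzd3 was 7.12 in ES cells and 9.53 in untreated EBs, Fzd8 was 6.66 and 9.04, and Fzd10os did not pass. Intraflagellar transport genes (Ift), which build the primary cilium in which Hedgehog signals are received, had 7 of 14 higher and 0 lower, by small amounts, with Ift57 the largest at 1.99-fold (7.65 and 8.64). Clustered protocadherins of the beta group (Pcdhb) had 7 of 22 higher and 0 lower, led by Pcdhb18 (4.13 and 5.24), and all at low signal. Adamts proteases of the matrix had 7 of 18 higher, led by Adamts6 (5.35 and 7.42, 4.21-fold), and 1 lower.

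Some guidance molecules had large differences, and the shares over all genes were 11% higher and 8.52% lower. Of 20 semaphorin genes 10 were higher and 4 lower, and the lower ones, Sema4a, Sema4b, Sema4d and Sema4f, are all of class 4, while Sema4c, of the same class, was 5.27-fold higher (7.21 and 9.61). Sema6d was 5.26 and 8.20, 7.71-fold higher, and Sema3a 5.72 and 8.33, 6.12-fold higher. The ephrin ligand Efna5 was 6.64 and 10.09, 10.9-fold higher, and the receptor Epha7 7.24 and 10.59, 10.2-fold higher. Efnb1, Efnb2 and Efnb3 were higher by 2.97-fold, 3.55-fold and 3.03-fold. Epha2, a receptor of early epiblast and ES cells, was 10.27 and 8.13, 4.40-fold lower. Efna1, Efna2, Efna4, Epha3, Ephb1 and Ephb3 were higher by 1.57-fold to 3.09-fold. Epha1, Epha4, Epha5, Epha6, Epha8, Epha10, Efna3, Ephb4 and Ephb6 did not pass.

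Some families were lower. Krüppel-like factors had 6 of 17 lower and 1 higher, with Klf9 at 10.96 and 8.95, 4.02-fold lower, the largest of the family. Small nucleolar RNAs of the Snora class, which guide changes to ribosomal RNA, had 6 of 20 lower and 0 higher, led by Snora44 (9.24 and 8.13). Aldehyde dehydrogenases had 5 of 21 lower and 0 higher, among them Aldh3b1 (7.96 and 6.22) and Aldh2 (11.46 and 9.79), at 3.33-fold and 3.18-fold. Solute carriers (Slc) had 58 of 364 lower (15.9%) and 33 higher (9.07%), with a median of -0.07. Over all genes the shares were 8.52% lower and 11% higher. Zinc finger genes named Zfp had 49 of 347 higher and 38 lower, a share in each direction near that over all genes. Of 1027 olfactory receptor genes (Olfr), which neither cell population is known to use, 3 were lower and 0 higher.

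Probe sets outside the 21789 with 1 symbol were past the threshold in smaller shares than the 11% higher and 8.52% lower over all genes. Of 12146 with no symbol 988 were higher and 628 lower, and of 1621 with several symbols 59 were higher and 71 lower. These were not assigned to genes.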
